A study of Danio rerio with 40 samples.

Results

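The genes described here carry out or regulate the oxidation of fatty acids in zebrafish. They are 46 genes, chosen from a list of symbols, from the enzymes that activate fatty acids and move them into mitochondria to the peroxisome proliferator-activated receptors (PPARs) and genes known to respond to lipids. All 46 were listed in the brain table and 45 in the eye table, out of 20454 genes listed in at least 1 of the 2 tables. The missing entry in the eye table was acadsb, a short and branched chain acyl-CoA dehydrogenase gene. Poly(A) RNA came from whole eyes and whole brains of adult fish that were either wh5, a line with the cytochrome P450 gene cyp1b1 knocked out, or wild type (WT). Each organ had 10 wh5 and 10 WT samples, with 5 of each sex in each genotype, for 40 samples in all. The nature of the wh5 lesion, the strain background and the exact ages of the fish are not stated. The title of the series names altered metabolite profiles of eye and brain, and the comparison asks whether transcripts of the fatty acid oxidation machinery differ between genotypes in these organs.

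Fatty acids enter oxidation as acyl-CoA. Carnitine palmitoyltransferases pass the acyl group to carnitine so that it can cross the inner mitochondrial membrane, and malonyl-CoA blocks that step. In the matrix an acyl-CoA dehydrogenase, a hydratase, a hydroxyacyl-CoA dehydrogenase and a thiolase shorten the chain in turn, and electrons leave through the electron transfer flavoprotein. Peroxisomes shorten chains that are too long or branched for mitochondria. PPARs are nuclear receptors that bind fatty acids and, paired with retinoid X receptors, raise transcription of many of these genes in mammals. Neurons draw little on fatty acids, glia oxidise some, and in the mouse retina photoreceptors and the pigment epithelium both use them.

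Only the authors' 2 comparison tables were used, so no value of a single sample is shown, the sexes could not be compared and library depth is unknown. Each log2 fold change is wh5 over WT, and a positive value means more transcript in wh5. Its standard error (SE) from the authors' model is the replicate error available, and 95% intervals were computed from it. Whether samples of a group were separate fish or pools is not stated. The p-values thus set the genotype difference against the variation between these samples, which need not be that between single fish. Titles and source fields contradict each other on the organ in all 40 samples, and the titles were followed. Each comparison fits the organ it is named for. The base mean (mean normalised count over both genotypes) of rhodopsin (rho) was 632710 in eye and 1359 in brain in the authors' deposited tables. That of the neuronal gene elavl3 was 3012 in eye and 11919 in brain. Without values of single samples, these levels cannot show which field is right for each sample. A lower level of the knocked-out gene was called in neither organ: in the authors' deposited tables the log2 fold change of cyp1b1 was 0.54 in eye (SE 0.14, DESeq2 adjusted p = 0.016) and -0.17 in brain (SE 0.14, adjusted p = 0.818). Its level therefore does not check the genotype labels.

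None of the member genes passed the test in either organ. With the authors' DESeq2 test at an adjusted p below 0.05, 0 of 45 members were called in eye, where 1.67% of all genes were called, and 0 of 46 in brain, where 0.736% were. At an unadjusted p below 0.05, 6 members were higher in wh5 and 0 lower in eye, and 4 were higher and 1 lower in brain. These are 13.3% of the members in eye, against 14.2% of all genes there, and 10.9% in brain, against 8.62% of all genes. With both directions counted, the members' shares are thus near the shares over all genes. By direction the shares were further apart. In eye all of the members' 13.3% were higher, where 7.23% of all genes were higher and 6.99% lower at that threshold. In brain 4 of 46 members were higher and 1 lower, where 4.13% of all genes were higher and 4.49% lower. Whether the members' directions differ from those of all genes was not tested. In bulk tissue, fewer cells of a type and less RNA per cell cannot be told apart.

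If the deposited SE is right, the intervals bound how large a difference between genotypes could be. Over all genes, the test statistic (log2 fold change over its SE) had a robust SD of 1.317 in eye and a lower one in brain. The intervals were not widened by it, and whether the SE is too small was not tested. With a larger SE the intervals would be wider, and fewer members might lie inside the bound used here. For 38 of 45 members in eye and 39 of 46 in brain, the 95% interval of the fold lay wholly inside a 1.5-fold difference in either direction. In eye the intervals that reached past that bound were those of decr1, decr2, ppargc1a, angptl4, plin2, pdk2a and pdk2b. In brain the intervals that did so were those of cpt1b, acadsb, ehhadh, pparda, angptl4, plin2 and pdk2b. A member with the median SE would have been called at a log2 fold change of about 0.45 in eye and 0.38 in brain, which is 1.37-fold and 1.30-fold. The smallest callable fold was 1.11 in eye, for cpt1aa, and 1.15 in brain, for acadvl. These values are cut-offs for the estimated fold change and not limits of the true differences that could be found. True differences of that size or smaller may have been missed.

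As a group the members lay slightly above 0 in eye and around 0 in brain. In eye, 33 of 45 members had a positive log2 fold change and 12 a negative one in the authors' deposited table, with a median of 0.13, while 51.9% of all genes were positive with a median of 0.0086. In brain, 22 of 46 were positive and the median was -0.0013, beside 49.5% and -0.0014 over all genes. These are descriptions of genes measured in the same samples, which are not independent of each other. Weighted by the inverse squared SE, the members' mean log2 fold change was 0.067 in eye and 0.00086 in brain.

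**Figure D1:**
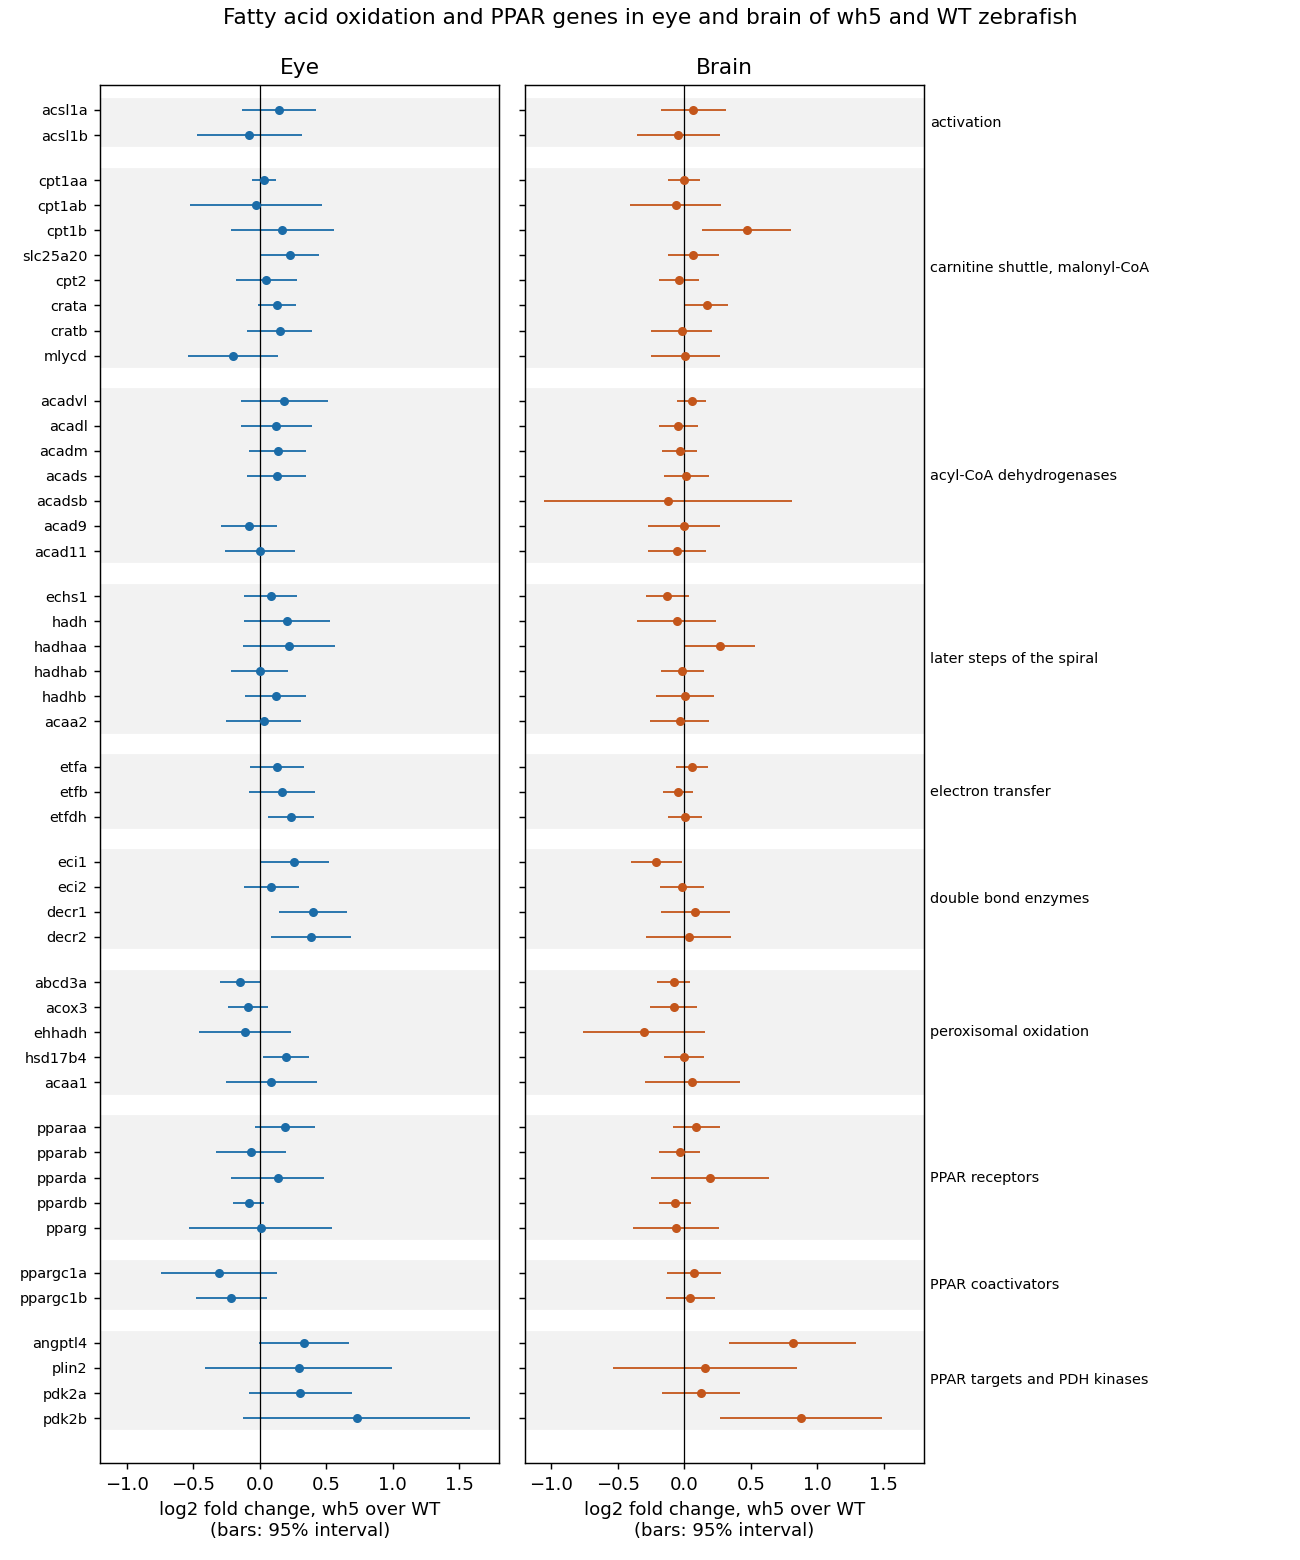
Log2 fold change (x axis, wh5 over WT) of each member, with its 95% interval as a bar, in eye (left) and brain (right), grouped by role down the y axis. Points lie to the right of 0 for 33 of 45 members in eye and 22 of 46 in brain, and no member passed an adjusted p of 0.05.

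The first steps, activation and entry, showed small differences. For acsl1a, a long chain acyl-CoA synthetase gene, the log2 fold change in the authors' deposited tables was 0.15 in eye (SE 0.14) and 0.07 in brain (SE 0.13). Its paralogue acsl1b had -0.08 (SE 0.20) in eye and -0.05 (SE 0.16) in brain, by the authors' deposited tables. The 3 genes for carnitine palmitoyltransferase 1, the malonyl-CoA-sensitive entry enzyme, differed from each other in how tightly they were measured. For cpt1aa, of the form called the liver form in mammals, the fold of wh5 over WT was 1.02 in eye (95% interval 0.959 to 1.09) and 1.00 in brain (0.919 to 1.09). That is the narrowest interval among the members in eye.

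The second liver-form copy, cpt1ab, had a wider interval, 0.696 to 1.38 in eye and 0.755 to 1.21 in brain. For the muscle-form gene cpt1b the authors' deposited tables give a log2 fold change in eye of 0.17 (SE 0.20, adjusted p = 0.757, base mean 517.5) and in brain of 0.47 (SE 0.17, unadjusted p = 0.0058, adjusted p = 0.245, base mean 107). Its 95% interval in brain, 0.14 to 0.80 on the log2 scale, did not include 0, but the gene did not pass once all genes were taken into account. Beside it, of 16 listed muscle markers in brain 5 were above 0, the median log2 fold change was -0.04 and none was called. At an unadjusted DESeq2 p below 0.05, 1 was higher and 0 lower (6.25%, against 8.62% of all genes). Their base means in the authors' deposited table had a median of 39.6 and ran from 7.24 to 5313, the last being that of ryr1b. In eye 8 of 18 were above 0, with a median of -0.04, none called and base means from 6.19 to 33454 in the authors' deposited table. There 1 was higher and 1 lower at that unadjusted threshold (11.1%, against 14.2% of all genes).

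The remaining shuttle genes encode the carnitine carrier (slc25a20), the inner-membrane transferase (cpt2), the acetyl-group transferases (crata, cratb) and malonyl-CoA decarboxylase (mlycd), which removes the inhibitor of entry. By the authors' deposited table, slc25a20 had 0.23 in eye (SE 0.11, unadjusted p = 0.0433, adjusted p = 0.329), and in brain 0.07 (SE 0.10). The log2 fold change of cpt2 was 0.05 (SE 0.12) in eye and -0.04 (SE 0.08) in brain in the authors' deposited tables. Values of crata were alike in the 2 organs, 0.13 (SE 0.07, adjusted p = 0.426) in eye and 0.17 (SE 0.08, unadjusted p = 0.041, adjusted p = 0.545) in brain in the authors' deposited tables. For mlycd the authors' deposited tables give -0.20 (SE 0.17) in eye and 0.0074 (SE 0.13) in brain. Across these 8 shuttle and malonyl-CoA genes, 6 were above 0 in eye and 4 in brain.

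Acyl-CoA dehydrogenases take the first step of each turn, each for its own range of chain lengths. The genes for very long (acadvl), long (acadl), medium (acadm) and short chains (acads) lay close together in eye, with log2 fold changes of 0.19 (SE 0.17), 0.12 (SE 0.14), 0.13 (SE 0.11) and 0.13 (SE 0.11) in the authors' deposited table. In brain the same genes had 0.05 (SE 0.05), -0.05 (SE 0.07), -0.04 (SE 0.07) and 0.01 (SE 0.09) in the authors' deposited table. The interval for acadvl in brain, 0.964-fold to 1.12-fold, was the tightest of these. The complex I assembly factor and dehydrogenase gene acad9 and the gene acad11, whose mammalian product acts on very long chains, had log2 fold changes between -0.08 and 0.0036 in both tables. In brain acadsb had a base mean of 6.08 in the authors' deposited table and an interval from 0.481-fold to 1.75-fold, so little can be said of it.

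The later mitochondrial steps are run by the short chain hydratase (echs1), the hydroxyacyl-CoA dehydrogenase (hadh), the trifunctional protein (alpha subunits hadhaa and hadhab, beta subunit hadhb) and the thiolase acaa2. In eye 5 of the 6 were above 0, from -0.0019 for hadhab to 0.22 for hadhaa, and none had an unadjusted p below 0.05. In brain 2 of the 6 were above 0. The copies of the alpha subunit gave different values there: the authors' deposited table lists hadhaa at 0.27 (SE 0.14, unadjusted p = 0.0531, adjusted p = 0.591) and hadhab at -0.02 (SE 0.08, adjusted p = 0.983). The difference between paralogues was not tested. Of the members placed on chromosomes, echs1 is the one that shares a chromosome with cyp1b1, and its log2 fold change was 0.08 (SE 0.10) in eye and -0.13 (SE 0.08, adjusted p = 0.719) in brain in the authors' deposited tables.

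Electron transfer genes, through which all the acyl-CoA dehydrogenases pass electrons to ubiquinone, were above 0 in eye and near 0 in brain. The flavoprotein subunit genes etfa and etfb had 0.13 (SE 0.10) and 0.17 (SE 0.13) in eye, and 0.06 (SE 0.06) and -0.05 (SE 0.06) in brain, by the authors' deposited tables. For etfdh, the membrane-bound dehydrogenase that receives those electrons, the authors' deposited tables give 0.23 (SE 0.09, unadjusted p = 0.0073, adjusted p = 0.148) in eye and 0.0029 (SE 0.07, adjusted p = 0.995) in brain. Its fold in eye was 1.18 (95% interval 1.04 to 1.32).

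Among the genes of enzymes that deal with double bonds was decr1, the member closest to being called in eye. Unsaturated chains need an isomerase (eci1, eci2) or a dienoyl-CoA reductase (decr1 in mitochondria, decr2 in peroxisomes) before the spiral can go on. In the authors' deposited table for eye, decr1 stood at a log2 fold change of 0.40 with SE 0.13 and adjusted p = 0.0837, the lowest adjusted p of any member in eye and the 507th lowest p in the table. That is a fold of 1.32, and the 95% interval on the log2 scale ran from 0.14 to 0.65. The peroxisomal reductase gene decr2 had 0.39 (SE 0.15, adjusted p = 0.189) and eci1 0.26 (SE 0.13, unadjusted p = 0.0495, adjusted p = 0.349) by the authors' deposited table for eye. The fourth gene of this group, eci2, had 0.09 (SE 0.11) in eye in the authors' deposited table. In brain the values in the authors' deposited table were 0.08 (SE 0.13) for decr1, 0.03 (SE 0.16) for decr2, -0.21 (SE 0.10, unadjusted p = 0.0334, adjusted p = 0.509) for eci1 and -0.02 (SE 0.08) for eci2. Rod markers also lay mostly above 0 in eye, 8 of 11 with a median of 0.16 and none called. At an unadjusted DESeq2 p below 0.05, 4 of them were higher and 0 lower, where 7.23% of all genes were higher. Their base means ran from 815 to 632710 in the authors' deposited table. Of 7 pigment epithelium and pigment cell markers in eye, 2 were above 0, with a median of -0.06 and 0 at that unadjusted threshold. The part of both marker lists in the values of the 4 double bond genes was not tested.

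Peroxisomal oxidation genes included values on either side of 0. The fatty acyl-CoA importer gene abcd3a had -0.15 (SE 0.08, unadjusted p = 0.0541, adjusted p = 0.360) in eye and -0.08 (SE 0.06) in brain, by the authors' deposited tables. The acyl-CoA oxidase gene acox3, for branched chains in mammals, had -0.09 (SE 0.08) in eye and -0.08 (SE 0.09) in brain in the authors' deposited tables. The 2 multifunctional enzymes of the next steps differed in sign in eye, where the authors' deposited table gives ehhadh at -0.11 (SE 0.18) and hsd17b4 at 0.20 (SE 0.09, unadjusted p = 0.0274, adjusted p = 0.267). In brain ehhadh had the lowest log2 fold change of all members, -0.30 in the authors' deposited table (SE 0.23, adjusted p = 0.793, base mean 60.7), and hsd17b4 had -0.0021 (SE 0.08). The peroxisomal thiolase gene acaa1 had 0.09 (SE 0.17) in eye and 0.06 (SE 0.18) in brain in the authors' deposited tables.

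None of the 5 PPAR genes had an unadjusted p below 0.05 in either organ. The alpha receptors drive fatty acid oxidation in mammalian liver, and the authors' deposited tables list pparaa at 0.19 (SE 0.11, adjusted p = 0.458) in eye and 0.09 (SE 0.09, adjusted p = 0.867) in brain, and pparab at -0.06 (SE 0.13) in eye and -0.04 (SE 0.08) in brain. The delta receptors are broadly expressed. The authors' deposited tables give pparda 0.13 (SE 0.18) in eye and 0.19 (SE 0.23) in brain, with base means of 73.4 in eye and 31.5 in brain, and ppardb -0.08 (SE 0.06) in eye and -0.07 (SE 0.06) in brain, with base means of 1135 in eye and 568 in brain. For ppardb the fold of wh5 over WT was bounded between 0.872 and 1.02 in eye and between 0.878 and 1.04 in brain. The adipocyte regulator gene pparg had 0.0065 (SE 0.28) in eye and -0.06 (SE 0.17) in brain in the authors' deposited tables, with a fold between 0.691 and 1.46 in eye.

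Both PPAR coactivator genes were below 0 in eye and slightly above 0 in brain. They encode co-regulators that raise mitochondrial gene expression in mammals. In eye ppargc1a had the lowest log2 fold change of the members, -0.31 (SE 0.22, adjusted p = 0.563), and ppargc1b had -0.21 (SE 0.14, adjusted p = 0.492) by the authors' deposited table. In brain they had 0.07 (SE 0.10, adjusted p = 0.923) and 0.04 (SE 0.09, adjusted p = 0.953) by the authors' deposited table. The eye intervals, 0.598-fold to 1.09-fold for ppargc1a and 0.716-fold to 1.04-fold for ppargc1b, include equal levels.

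The largest positive value in eye was that of pdk2b, and the largest in brain were those of pdk2b and angptl4. The gene angptl4 encodes a secreted inhibitor of lipoprotein lipase and is a target of PPARs in mammals. In brain its log2 fold change was 0.82 (SE 0.24, unadjusted p = 0.000834, adjusted p = 0.0843), and by p it ranked 191st among 19300 genes in the authors' deposited table. The fold was 1.76, with a 95% interval from 1.26 to 2.45. In eye the authors' deposited table gives 0.33 (SE 0.17, unadjusted p = 0.0563, adjusted p = 0.367), a fold of 1.26 (0.994 to 1.59). In neither organ did it pass over all genes.

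Pyruvate dehydrogenase kinases switch fuel use by shutting off the entry of pyruvate into the citric acid cycle. The kinase gene pdk2b had 0.73 (SE 0.43, adjusted p = 0.449) in eye and 0.88 (SE 0.31, unadjusted p = 0.0046, adjusted p = 0.219) in brain in the authors' deposited tables. Its fold intervals were wide, 0.919 to 2.99 in eye and 1.21 to 2.81 in brain. The paralogue pdk2a had 0.30 (SE 0.20, adjusted p = 0.502) in eye and 0.12 (SE 0.15, adjusted p = 0.903) in brain in the authors' deposited tables. The lipid droplet coat gene plin2 had 0.29 (SE 0.36, adjusted p = 0.769) in eye and 0.15 (SE 0.35, adjusted p = 0.955) in brain in the authors' deposited tables. All 4 of these genes were above 0 in each organ. Beside the brain values, 11 of 11 rod markers were below 0 in brain, with a median of -1.59 and none called. At an unadjusted DESeq2 p below 0.05, 6 of them were lower and 0 higher, where 4.49% of all genes were lower. Their base means ran from 8.22 to 1359 in the authors' deposited table, and their part in the values of angptl4 and pdk2b was not tested. Of 10 leukocyte markers, 7 were above 0 in eye, with a median of 0.12 and the macrophage gene mpeg1.2 called (adjusted p = 0.022 by the authors' deposited table), and 3 were above 0 in brain, with a median of -0.05 and none called. With an empirical null (the test statistic centred and divided by its robust SD), mpeg1.2 did not remain called in eye (adjusted p = 0.525). Of the adipocyte markers, 4 of 5 were above 0 in eye, with a median of 0.19, and 1 of 6 in brain, with a median of -0.54. None of them was called, and their part in the values of angptl4 and plin2 was not tested.

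For some of these genes the SE was above that of most genes of like abundance. Each member's SE was set against the median SE of the 500 genes nearest to it in base mean in the same table. Over the members the ratio had a median of 1.09 in eye and 0.988 in brain, with 27 of 45 members above 1 in eye and 20 of 46 in brain. The ratio was 4.38 for pdk2b, 2.74 for plin2, 2.25 for cpt1ab and 2.01 for pdk2a in eye. In brain it was 3.53 for plin2 and 2.43 for angptl4, while pdk2b had 1.93. Of the 500 neighbours in eye, 98.8% had a smaller SE than pdk2b and 92.6% a smaller SE than pdk2a. How many of all genes reach such ratios was not computed, so these counts do not set the members apart. At the other end, cpt1aa in eye had 0.458 and a smaller SE than all 500 of its neighbours. The members' highest fold changes in each organ, those of pdk2b and, in brain, angptl4, thus had an SE above the median of like genes. The spread cannot be split by sex or sample in these tables.

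**Figure D2:**
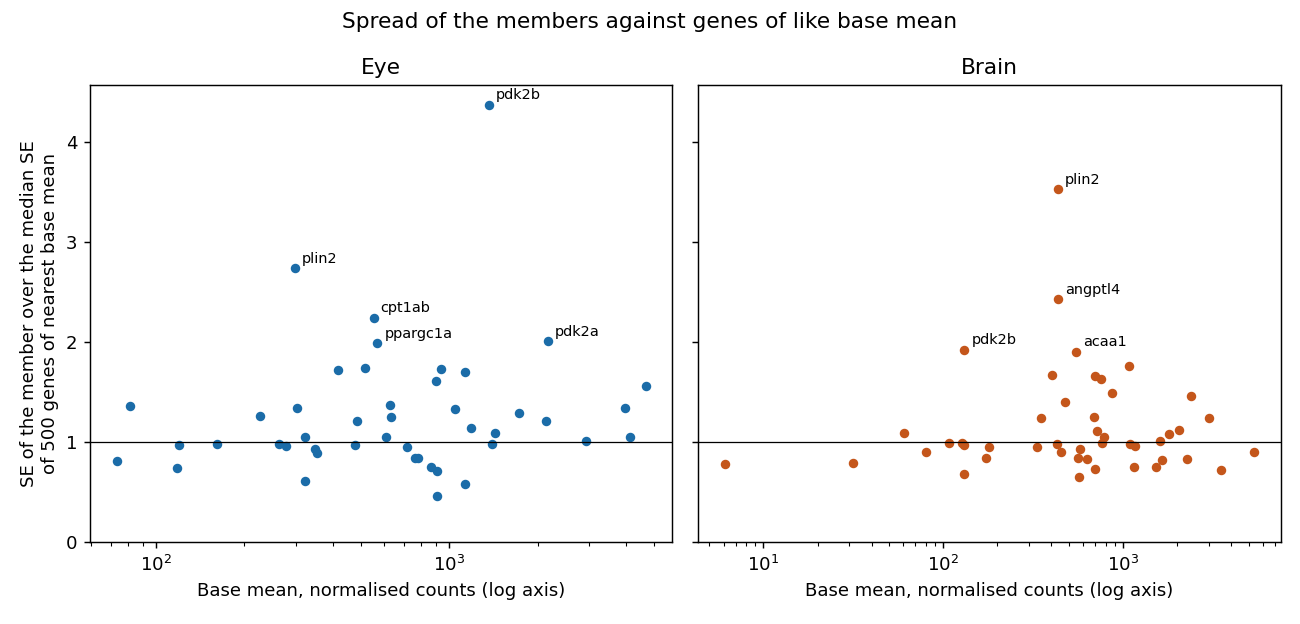
SE of each member divided by the median SE of the 500 genes of nearest base mean (y axis) against its base mean in normalised counts (x axis, log scale), in eye (left) and brain (right). Points above the line at 1 have an SE above the median of like genes, with pdk2b highest in eye at 4.38 and plin2 highest in brain at 3.53.

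No member was called as differing between organs in its response to genotype. The difference of the log2 fold changes, eye minus brain, was tested per gene against its SE with adjustment over the 18275 genes in both tables. That SE treats the eye and brain samples as independent. If both organs came from the same fish, the SE and the p-values here would be off. An adjusted p below 0.05 was reached by 0 of 45 members and 0.0821% of all genes, and an unadjusted p below 0.05 by 2 members (4.44%), against 8.19% of all genes. Those members were eci1 and etfdh, both with the greater value in eye. For eci1 the difference was 0.47 (SE 0.17, adjusted p = 0.392), with an interval from 0.15 to 0.80. For etfdh it was 0.23 (SE 0.11, adjusted p = 0.589). For angptl4 the difference was -0.49 (SE 0.30, adjusted p = 0.691) and for decr1 0.32 (SE 0.19, adjusted p = 0.674). Their values, past 0.05 unadjusted in a single organ, are thus not shown to differ from those in the other organ. For ppargc1a, past 0.05 unadjusted in neither organ, the difference was -0.38 (SE 0.25, adjusted p = 0.708).

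Of the 45 members in both tables, 28 had the same sign in eye and brain, 19 of them positive and 9 negative. That is 62.2%, beside 53.6% of all genes. Pearson's r between the log2 fold changes was 0.57 over the 45 members and 0.33 over the 43 without angptl4 and pdk2b, while over all genes it was 0.34. Spearman's rank correlation was 0.52 over the 45 members, 0.45 over those 43 and 0.18 over all genes. Whether the members' correlation differs from that of all genes was not tested. These values describe genes of the same libraries. Whether eye and brain samples came from the same fish is not stated.

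**Figure D3:**
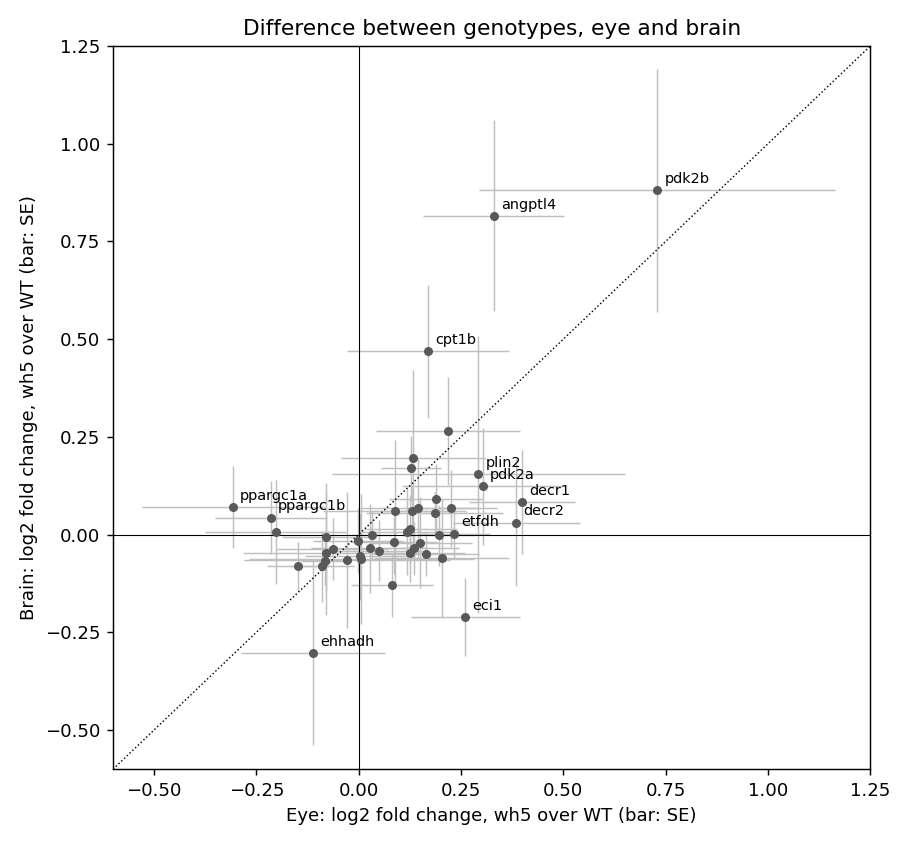
Log2 fold change of wh5 over WT in eye (x axis) against brain (y axis) for the 45 members in both tables, with bars of 1 SE and a dotted line of equal values. Angptl4 and pdk2b lie at the upper right, and eci1 has opposite signs, 0.26 in eye and -0.21 in brain.

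The members' levels in the organs were also set side by side. Base means of the 2 tables were normalised separately, so their ratios, eye over brain, are only a description. Over all 18275 genes in both tables the median ratio was 0.96, and 8682 were above 1. The median ratio over the members was 1.12, and 24 of 45 were above 1. The highest was that of pdk2b at 10.4, with base means of 1366 in eye and 131 in brain in the authors' deposited tables, followed by cpt1b at 4.83, acsl1b at 3.21 and angptl4 at 2.61. The lowest were cpt1aa at 0.548, acaa1 at 0.553 and acsl1a at 0.560. Each acsl1 and cpt1 family thus held a copy that was relatively higher in eye and another relatively higher in brain. Muscle markers had a median ratio of 147.7 over 16 genes, ranging from 0.098 to 3339, with 198 for the creatine kinase gene ckma. Among them ryr1b, at 0.098, and mylpfb, at 0.104, were relatively higher in brain. Rod markers had a median ratio of 252 over 11 genes. The part of both marker lists in the ratios of pdk2b and cpt1b was not tested.

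Genes next to the pathway were examined as 11 further lists of 185 genes, of which 161 were listed in each organ. In eye 0 were called higher and 2 lower, which is 1.24%, beside 0.7% of all genes called lower and 1.67% called in either direction. In brain 0 were called, beside 0.736% of all genes, with 8 at an unadjusted p below 0.05 (4.97%, against 8.62% of all genes). At that threshold 19 of the 161 (11.8%) passed in eye, against 14.2% of all genes, with 5 higher and 14 lower, where 7.23% of all genes were higher and 6.99% lower. The median log2 fold change over all 161 was -0.01 in eye and 0.0050 in brain.

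The genes called in eye were mgll and esrrgb. The monoacylglycerol lipase gene mgll, which completes the breakdown of stored triglyceride, fell in wh5 eye, where the authors' deposited table puts its log2 fold change at -0.26 (SE 0.07, DESeq2 adjusted p = 0.0162), against -0.04 (SE 0.06) in brain. Its list, lipid droplets and lipolysis, had 1 of 16 genes called in eye, where 1.67% of all genes were called, and 8 above 0. The estrogen-related receptor gene esrrgb, of a family of orphan receptors that work with the PPAR coactivators in mammals, fell in wh5 eye with -0.55 (SE 0.16, adjusted p = 0.0391) by the authors' deposited table. It was the called gene among 29 listed PPAR partners and co-regulators, whose median was -0.01 in eye. Another receptor of that family, esrra, had -0.27 (SE 0.10, adjusted p = 0.131) in eye in the authors' deposited table. At an unadjusted DESeq2 p below 0.05, this list had 0 higher and 2 lower in eye (6.90%, against 14.2% of all genes). Those 2 were esrrgb and esrra, so esrrb and esrrga, also listed from that family, did not reach that threshold. In the authors' deposited table for brain, esrrgb had a base mean of 7.86 and its log2 fold change was -0.02 (SE 0.51), which leaves its direction there undetermined. Neither gene differed between organs once adjusted (adjusted p = 0.524 for mgll and 0.827 for esrrgb), and with an empirical null neither remained called in eye (0.407 and 0.584). Of the Muller glia and astroglia markers in eye, 4 of 5 were below 0, with a median of -0.24, base means from 845 to 19225 and glula called by the authors' deposited table at -0.26 (SE 0.07, adjusted p = 0.0296). With the empirical null glula did not remain called either (0.510). Of 8 neuron markers in eye, 7 were below 0, with a median of -0.10 and none called by the authors' deposited table. At an unadjusted DESeq2 p below 0.05, 0 of them were higher and 2 lower, where 6.99% of all genes were lower. The part of these markers in the values of mgll and esrrgb was not tested.

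None of the other 9 lists held a called gene in either organ. The counts that follow are at an unadjusted DESeq2 p below 0.05. At that threshold 7.23% of all genes were higher and 6.99% lower in eye, and 4.13% higher and 4.49% lower in brain. Peroxisome biogenesis and other peroxisomal oxidation genes had 3 higher and 1 lower in eye among 27 listed, with a median of 0.01. That is 14.8%, near the 14.2% of all genes, and in brain the list had 0 in either direction. Fatty acid synthesis genes had 1 higher and 3 lower in eye among 21, with a median of -0.09, and 0 higher and 1 lower in brain, with a median of 0.03. Fatty acid uptake and binding genes had medians of -0.05 in eye and -0.11 in brain over 11 genes. They had 0 in either direction in eye, and 1 higher and 1 lower in brain. The fatty acid transporter gene slc27a1b had -0.41 (SE 0.13, adjusted p = 0.130) in brain, the lowest adjusted p of that list in the authors' deposited table. A gene of the same transporter family, slc27a6, had 0.32 there (SE 0.14, adjusted p = 0.456). Ketone body genes had medians of -0.04 in eye and 0.04 in brain over 11 genes, with 1 higher and 1 lower in eye. In brain they had 1 higher and 0 lower. Branched-chain and propionyl-CoA oxidation genes had medians of 0.04 in eye and 0.0074 in brain over 14. They had 0 in either direction in eye, and 0 higher and 1 lower in brain. Pyruvate dehydrogenase genes and its other regulators had 0 higher and 2 lower in eye and 0 higher and 1 lower in brain among 12. Carnitine supply (8 listed), other acyl-CoA synthetases (9 listed) and uncoupling proteins (3 listed) had medians of -0.03, -0.08 and 0.40 in eye and -0.08, 0.06 and -0.0033 in brain. Each of these lists had 0 higher and 1 lower at an unadjusted p below 0.05 in eye, and 0 in either direction in brain. The values of the uncoupling genes in eye ran from -0.63 to 0.54.

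**Figure D4:**
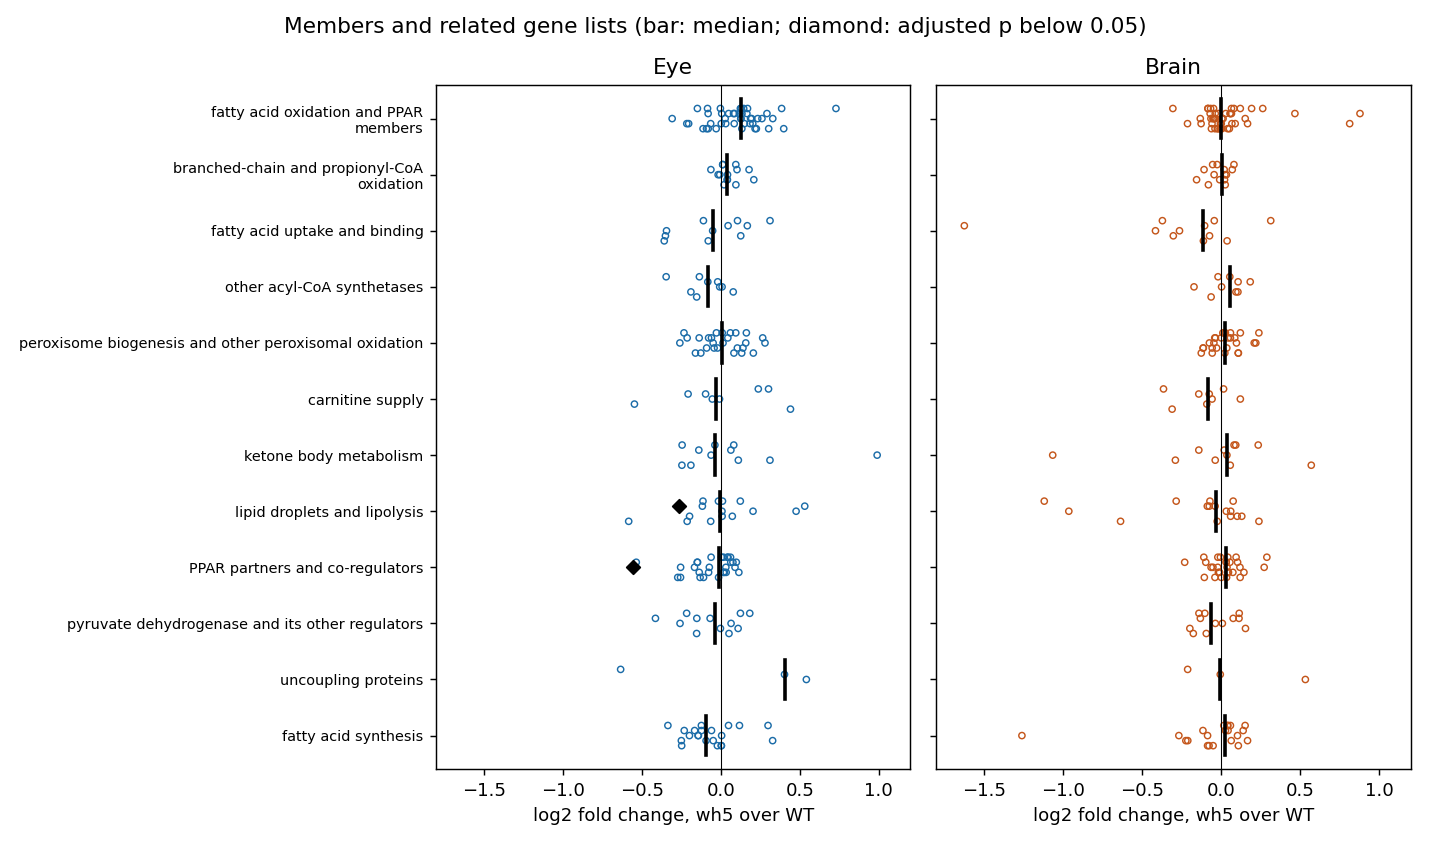
Log2 fold change of wh5 over WT (x axis) of the members and of the genes of 11 related lists (y axis), in eye (left) and brain (right), with the median of each list as a bar and genes at an adjusted p below 0.05 as diamonds. The diamonds are mgll at -0.26 and esrrgb at -0.55, both in eye.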

How the data were processed

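Poly(A) RNA of 40 samples was sequenced, and samples were grouped by organ, genotype and sex from their titles. Per the submitters' processing notes, reads were handled with fastp and STAR on build GRCz11 and compared with DESeq2 (version 1.32.0); parameters and the model formula are not stated there. The authors deposited, per the file headers, 1 table per organ with a log2 fold change and its SE, a base mean (a signal, the mean of normalised counts), a test statistic (a score, the log2 fold change over its SE), and p-values before and after adjustment. The files do not state the logarithm's base, which was read as 2 because DESeq2 writes log2. How reads shared by near-identical copies were counted is not stated, so values of paralogues such as hadhaa and hadhab or pdk2a and pdk2b are uncertain to that degree.

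No model was refitted. Members were matched by symbol, and a deposited adjusted p below 0.05 made a call. The adjusted p was checked against a Benjamini-Hochberg recomputation (largest relative difference 0.00451 in eye and 0.00453 in brain). Intervals of 95% are normal intervals from the deposited SE, not widened by the robust SD of the test statistic. For eye minus brain, the difference in log2 fold change was divided by its SE (the 2 organs' SEs added in quadrature) and referred to a normal distribution, two-sided, with adjustment over all genes in both tables. Chromosomes came from the RefSeq gene table of GRCz12tu, another build, used only for which genes share a chromosome with cyp1b1. Of the further lists, 24 of 185 genes were not matched in each organ. Software was scipy 1.17.1, numpy 2.4.6 and pandas 2.3.3 under Python 3.11.15, with figures from matplotlib 3.10.9.

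The members and the further lists were chosen with earlier results of these data known. All members could be named. Of other lists the called genes were to be named, or else the 2 most expressed ones. In their place esrra, esrrb, esrrga, slc27a1b, slc27a6, ckma, ryr1b and mylpfb were named after their values were seen. Lists without a called gene are given by counts and medians.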

Additional observations from a re-analysis of the deposited data

How the results depend on the processing

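The number of members called was 0 in each organ at an adjusted p below 0.05 and below 0.01, with genes of a base mean under 50 left out, with an empirical null (the test statistic centred and divided by its robust SD) and without the chromosome of cyp1b1. With a threshold of 0.1 it was 1 in eye (decr1) and 1 in brain (angptl4). Across these settings the adjusted p of decr1 in eye ran from 0.0828 to 0.768 and that of angptl4 in brain from 0.0821 to 0.245. The members' difference between organs had 0 calls under every alternative tried. The members' median log2 fold change in eye was 0.127, and 0.118 when centred on the median of all genes. Their mean weighted by the inverse squared SE was lower in eye, at 0.067. In brain these values were -0.0013, 8.1e-05 and 0.00086. Over all genes the calls numbered 325 in eye, with 642 at 0.1, 122 at 0.01 and 38 with the empirical null, and 142 in brain, with 75 at 0.01, 77 with the empirical null and 65 without the chromosome of cyp1b1. Over organ differences there were 15, with 28 at 0.1, 9 at a base mean of 50 or more, 1 with the empirical null and 7 without that chromosome. No paired analysis was possible because the tables used hold no values of single samples, and for the same reason no replicate was left out in turn.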
